A study of Mus musculus with 12 samples.

Results

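The 2 receptors of corticosterone in the hippocampus and 8 genes that glucocorticoids are known to induce were followed in mice injected with a plant sterol. The 10 genes were chosen by name, with earlier results of these data known. They were the receptor genes Nr3c1 and Nr3c2 and the target genes Fkbp5, Sgk1, Tsc22d3, Ddit4, Zbtb16, Mt1, Mt2 and Arrdc2. They are 10 of the 21532 genes in the count table, and all 10 were among the 18382 genes that passed the filter on low counts. RNA came from the hippocampus of wild-type C57BL/6 mice, killed 6 h or 1 h after 1 intraperitoneal injection. The 4 groups were stigmasterol at 6 h (replicates 13, 22 and 23), vehicle at 6 h (replicates 12, 14 and 21), stigmasterol at 1 h (replicates 1, 11 and 8) and vehicle at 1 h (replicates 4, 5 and 9), with 3 separate animals in each. The labels disagree on the compound. The treatment field of all samples gives beta-sitosterol at 100 mg/kg, the other fields give stigmasterol, and the groups are called stigmasterol here. Sex, age, the clock time of injection and what the vehicle contained are not given in the labels, so the hour after injection and the hour of day cannot be told apart. Replicate numbers ran from 1 to 11 at 1 h and from 12 to 23 at 6 h. If they give an order of animals, it cannot be told apart from time either.

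Corticosterone, the main glucocorticoid of rodents, binds a pair of nuclear receptors in the hippocampus. The mineralocorticoid receptor has the higher affinity and is occupied even when hormone levels are low, whereas the glucocorticoid receptor fills during stress and at the daily peak. Bound receptors move to the nucleus, where they bind glucocorticoid response elements and raise or lower the transcription of their target genes.

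Reference promoter windows are shown for Sgk1, in which the full response element of the receptors was found, and for the metallothioneins, the classical genes of the metal response element. RefSeq windows on build GRCm38.p6, from 250 bases before to 50 bases after each annotated start, were at hand for 8 of the 10 members (15 windows). The palindromic glucocorticoid response element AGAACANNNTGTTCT was present in 1 of these 15 windows, in front of 1 of the 6 starts of Sgk1, and in 3 of all 32851 promoter windows searched (0.00913%). Capitals mark that element in the following stretch of chr10:21993640-21993889, plus strand, in which it begins 189 bases before the start; the stretch is intronic to longer annotated Sgk1 transcripts.
Sgk1: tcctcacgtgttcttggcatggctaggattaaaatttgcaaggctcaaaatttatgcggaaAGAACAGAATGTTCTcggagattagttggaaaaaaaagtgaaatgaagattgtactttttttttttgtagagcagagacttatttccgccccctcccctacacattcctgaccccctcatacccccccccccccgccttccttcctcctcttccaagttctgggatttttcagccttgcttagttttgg
The single half-site TGTTCT, which the full element contains on both strands, was found in 4 of the members' 15 windows and in 19% of all windows. The E-box CACGTG, a letter string bound by clock and other basic helix-loop-helix factors, was found in 2 of the 15 windows and in 7.15% of all windows. In the Sgk1 window shown, the E-box overlaps the most upstream half-site.

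The other string searched was the core of the metal response element, TGCNCNC, to which the zinc sensor MTF1 binds. A core was present on either strand in 9 of the members' 15 windows and in 51% of all windows, with 3 or more cores in 7.1% and 5 or more in 0.697% of all windows. The window of Mt2 held 6 cores and that of Mt1 held 3, as did another window of Sgk1 (chr10:21994416-21994715), and that of Ddit4 held 2. The remaining 5 windows with a core held 1 each. Capitals mark the cores in Mt2 (chr8:94172368-94172617, plus strand, 5 of its 6 cores), in the upstream stretch of Mt1 (chr8:94178839-94179081, plus strand) and in a short stretch after the annotated exon start of Mt1 (chr8:94179089-94179118, plus strand).
Mt2: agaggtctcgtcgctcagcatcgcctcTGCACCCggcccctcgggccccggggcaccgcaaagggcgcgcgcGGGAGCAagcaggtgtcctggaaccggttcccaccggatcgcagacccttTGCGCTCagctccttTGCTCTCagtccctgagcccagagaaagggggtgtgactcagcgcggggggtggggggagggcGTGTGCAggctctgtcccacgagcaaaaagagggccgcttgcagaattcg
Mt1: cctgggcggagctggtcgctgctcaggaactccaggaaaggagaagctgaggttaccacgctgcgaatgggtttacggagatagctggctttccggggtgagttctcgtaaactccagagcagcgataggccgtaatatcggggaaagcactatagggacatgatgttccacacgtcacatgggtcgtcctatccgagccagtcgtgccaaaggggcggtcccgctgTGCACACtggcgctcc
Mt1 after the start: tcTGCACTCcgcccgaaaagTGCGCTCggc
These matches describe the letters of the reference sequence only.

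Reads assigned to genes summed to between 27613253 and 42043875 per library, and levels are given as CPM (counts scaled to a common library total with TMM factors). At 1 h all 3 stigmasterol libraries were deeper than the vehicle libraries, with 38118000 to 42043900 against 28676800 to 33217600 counts. Marker levels fitted the labelled tissue, with the mean log2 CPM of 11 dentate granule cell markers between 5.46 and 5.99 and that of 12 pyramidal neuron markers between 5.10 and 5.53 in all 12 libraries. Neighbouring tissue was uneven. Choroid plexus content (mean log2 CPM of 15 markers, none at 0 in any library) was 1.31 and 1.66 for vehicle replicates 4 and 9 at 1 h, against 3.14 to 6.04 elsewhere. Stigmasterol replicate 8 at 1 h was highest in striatum markers (3.8, against at most 2.44 elsewhere, with Isl1 at 0 in some libraries) and in oligodendrocyte markers (7.91, against 6.77 to 7.59 elsewhere, with none at 0). In bulk tissue, fewer cells of a type and less RNA per cell cannot be told apart.

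The members covered a wide range of abundance. Over the 12 libraries, the mean level per kilobase of exon was 224 CPM per kb for Mt1 and 87.5 for Mt2, the small cysteine-rich proteins that buffer zinc and copper. Exon length was the union of all annotated exons of a gene, so the order depends on the annotation. For Mt1 that union (1246 bases) covers the whole gene. Ddit4 (31.3), Nr3c2 (28.5), Tsc22d3 (25.1), Zbtb16 (20.5) and Sgk1 (20.1) followed on the same scale, then Fkbp5 (10.4), Nr3c1 (9.76) and Arrdc2 (7.997). The SD over the 12 libraries was 6.55 for Ddit4, 3.58 for Nr3c2 and 4.92 for Tsc22d3, and the ranges of these neighbours in the order overlapped. Ranges also overlapped for Zbtb16 and Sgk1, with SDs of 3.29 and 4.58, and for the lowest 3 genes, with SDs of 2.51, 0.889 and 2.16. These SDs include differences of treatment and time, and the order within libraries was not tested. Ddit4 was above Tsc22d3 in each library except stigmasterol replicate 23 at 6 h (27.5 against 36.1 CPM per kb).

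**Figure D1:**
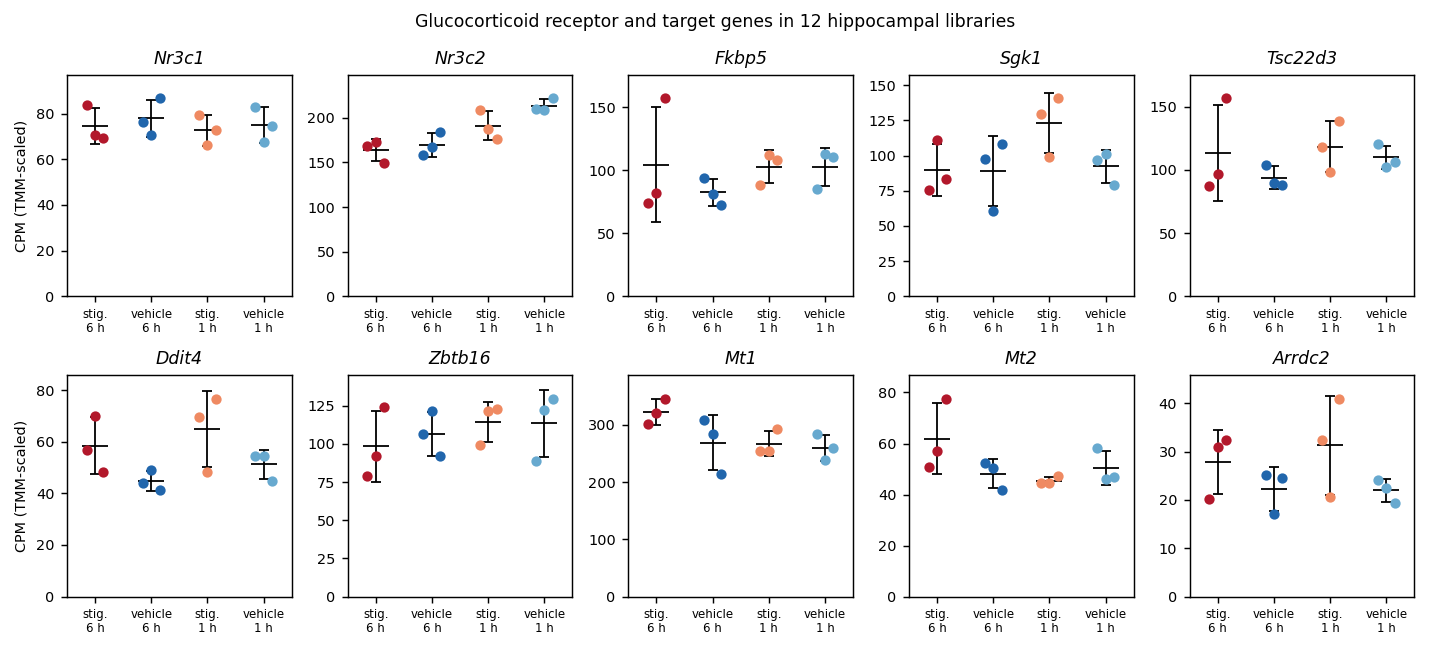
Level of each of the 10 genes in CPM (TMM-scaled totals, linear axes from 0) in 12 hippocampal libraries, by treatment and time (stig., stigmasterol). Points are libraries of 1 mouse each, horizontal lines are group means and bars are SDs (n = 3). Nr3c2 is lower at 6 h than at 1 h, and in Fkbp5 a single stigmasterol library at 6 h (157 CPM) stands above all others.

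Neither receptor gene passed the threshold between stigmasterol and vehicle mice, at 6 h or at 1 h. Gene coordinates are those of GENCODE M21 on build GRCm38. Nr3c1 (ENSMUSG00000024431, chr18:39410545-39519421, minus strand) encodes the glucocorticoid receptor. Its level was 83.7, 70.6 and 69.3 CPM in stigmasterol mice at 6 h, against 76.3, 70.7 and 86.7 CPM in vehicle mice at 6 h. The 1 h libraries held 79.4, 66.0 and 72.6 CPM in stigmasterol mice, against 83.0, 67.4 and 74.5 CPM in vehicle mice. The groups overlapped at both times. On the log2 scale the fold change of stigmasterol over vehicle was -0.06 ± 0.11 (SE, n = 3 each) at 6 h, with a 95% interval of -0.29 to 0.17, and -0.04 ± 0.11 at 1 h, with an interval of -0.28 to 0.19.

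Nr3c2 (ENSMUSG00000031618, chr8:76899442-77245012, plus strand) encodes the mineralocorticoid receptor, which is dense in hippocampal neurons. It stood at 168, 173 and 150 CPM in stigmasterol mice at 6 h, against 158, 168 and 184 CPM in vehicle mice at 6 h. At 1 h the values were 209, 188 and 177 CPM in stigmasterol mice, against 210, 209 and 222 CPM in vehicle mice. The groups overlapped at 6 h. At 1 h the stigmasterol libraries were all lower, but the highest of them lay within 1 CPM of the lowest vehicle library. Nr3c2 was the only member whose groups did not overlap at 1 h, as in 15.8% of all genes tested (7.56% with stigmasterol lower), and no member's groups were separate at 6 h, as in 8.22% of all genes. Nr3c2 had a log2 fold change of -0.05 ± 0.08 at 6 h and -0.16 ± 0.08 at 1 h (SE, n = 3 each; edgeR quasi-likelihood test, adjusted p = 1.00 and 0.683), with a 95% interval of -0.34 to 0.02 for the 1 h value. The gene Gm10649 overlaps the 5′ end of Nr3c2 and had at most 89 counts in any library. How reads lying over both genes were counted is not known without a strand setting, and these counts do not show their number.

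Across all genes, edgeR's quasi-likelihood test with Benjamini-Hochberg adjustment called 0 of 18382 genes (0%) between stigmasterol and vehicle mice at 6 h and 0 (0%) at 1 h, so no member was called. DESeq2 called 4 genes at 6 h and 21 at 1 h, none of them a member, and limma-voom and limma-trend called 0. At an unadjusted p below 0.05, 3 of the 10 members stood out at 6 h (Mt2, Ddit4 and Mt1), all higher with stigmasterol, against 4.1% of all genes in either direction and 1.64% higher. At 1 h it was 1 member, Arrdc2, also higher, against 7.52% in either direction and 4.97% higher. The members were chosen with earlier results of these data known, so these counts carry no test. Over the 10 members the median log2 value was 0.27 at 6 h and 0.02 at 1 h, while that over all genes was 0.00 at both times. Of the 10 members, 7 lay above 0 at 6 h and 7 at 1 h, against 50% and 49.6% of all genes. The 6 h median rested on stigmasterol replicate 23, without which it was 0.04 and 6 members lay above 0. The 1 h count rested on stigmasterol replicate 8, without which 3 members lay above 0 and the median was -0.04. Fold changes of all genes also went with GC content (Spearman 0.195 at 6 h and 0.404 at 1 h). The shares of all genes are not matched to the members for GC content. Once dependence on GC content and gene length was subtracted, Fkbp5 (-0.007), Zbtb16 (-0.048) and Mt1 (-0.066) lay below 0 at 1 h. Nr3c1 then lay above 0 (0.022).

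**Figure D2:**
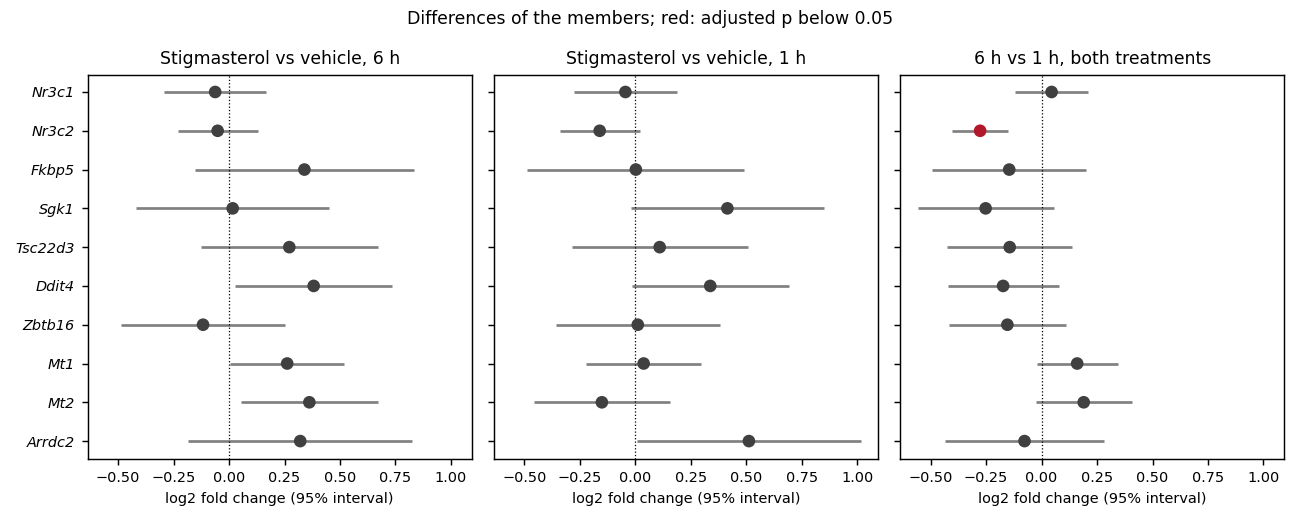
Log2 fold change of each gene (points) with its 95% interval (lines), for stigmasterol against vehicle at 6 h, stigmasterol against vehicle at 1 h, and 6 h against 1 h averaged over treatments. Red marks an adjusted p below 0.05. The intervals of the target genes are wide, those of Mt2, Ddit4 and Mt1 at 6 h lie just above 0, and the only red point is Nr3c2 at 6 h against 1 h.

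Fkbp5 (ENSMUSG00000024222, chr17:28399094-28517527, minus strand) encodes a co-chaperone that binds the receptor complex through HSP90 and lowers its affinity for hormone, and it is itself induced by the receptor. It stood at 74.4, 82.0 and 157 CPM in stigmasterol mice at 6 h, against 93.9, 81.5 and 72.4 CPM in vehicle mice at 6 h. Replicate 23, at 157 CPM, was above the vehicle range, and the other 2 stigmasterol libraries lay within it. At 1 h the level was 88.2, 112 and 108 CPM in stigmasterol mice, against 85.1, 113 and 110 CPM in vehicle mice, and the groups covered almost the same range. The 6 h log2 fold change was 0.34 ± 0.23 (SE, n = 3 each) and -0.08 without replicate 23. At 1 h it was 0.00 ± 0.23, with a 95% interval of -0.49 to 0.49.

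Tsc22d3 (ENSMUSG00000031431, chrX:140539528-140600659, minus strand) encodes GILZ, a leucine zipper protein through which glucocorticoids restrain inflammatory signalling. Its level was 86.9, 96.7 and 157 CPM in stigmasterol mice at 6 h, against 104, 89.8 and 88.1 CPM in vehicle mice at 6 h. Replicate 23 was again the highest. At 1 h the values were 118, 98.3 and 139 CPM in stigmasterol mice, against 120, 103 and 107 CPM in vehicle mice, with overlapping groups. Its log2 fold change was 0.27 ± 0.18 at 6 h (SE, n = 3 each), or -0.03 without replicate 23, and 0.11 ± 0.18 at 1 h.

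Zbtb16 (ENSMUSG00000066687, chr9:48654297-48836222, minus strand) encodes PLZF, a zinc finger repressor that glucocorticoids induce strongly in many cell types. It ranged from 78.9 to 124 CPM in stigmasterol mice and from 92.3 to 121 CPM in vehicle mice at 6 h. At 1 h the range was 99.1 to 123 CPM in stigmasterol mice and 88.5 to 130 CPM in vehicle mice. Neither comparison separated the groups, with log2 fold changes of -0.12 ± 0.17 at 6 h and 0.01 ± 0.17 at 1 h (SE, n = 3 each).

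Sgk1 (ENSMUSG00000019970, chr10:21882184-21999903, plus strand), the serum- and glucocorticoid-regulated kinase that controls ion channels and transporters, carried the full response element shown above. It stood at 75.5, 111 and 83.5 CPM in stigmasterol mice at 6 h, against 97.7, 60.8 and 109 CPM in vehicle mice at 6 h. The 1 h values were 129, 99.2 and 141 CPM in stigmasterol mice, against 97.0, 101 and 79.0 CPM in vehicle mice. At 6 h the groups overlapped fully. At 1 h, 2 stigmasterol libraries (replicates 1 and 8) were above all vehicle libraries and replicate 11 was within their range. Stigmasterol over vehicle gave a log2 fold change of 0.02 ± 0.20 at 6 h and 0.41 ± 0.20 at 1 h (SE, n = 3 each; edgeR adjusted p = 1.00 and 0.678). All 15 choroid plexus markers lay above 0 at 1 h (median log2 fold change 1.42). With choroid plexus marker content as a covariate the 1 h value of Sgk1 was 0.15, and with oligodendrocyte marker content it was 0.24.

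Ddit4 (ENSMUSG00000020108, chr10:59949669-59951834, minus strand) encodes REDD1, an inhibitor of mTORC1 signalling that is induced by glucocorticoids, hypoxia and DNA damage. It stood at 56.9, 70.1 and 48.2 CPM in stigmasterol mice at 6 h, against 44.2, 49.1 and 41.2 CPM in vehicle mice at 6 h. In the 1 h groups it was at 69.5, 48.3 and 76.7 CPM in stigmasterol mice, against 54.6, 54.6 and 44.9 CPM in vehicle mice. At each time 2 stigmasterol libraries were above all vehicle libraries, and the third was inside the vehicle range. Its log2 fold change was 0.38 ± 0.16 at 6 h, with a 95% interval of 0.03 to 0.74, and 0.34 ± 0.16 at 1 h, with an interval of -0.02 to 0.69 (SE, n = 3 each). The 6 h value was 0.23 without stigmasterol replicate 22, and the 1 h value was 0.20 without stigmasterol replicate 8.

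Averaged over both times, Ddit4 had the smallest p of the members, with a log2 fold change of 0.36 ± 0.12 (SE, 6 stigmasterol and 6 vehicle libraries). That value had an unadjusted p = 0.00837 and an adjusted p = 0.421 in edgeR, and it did not pass the threshold. No gene passed in the averaged comparison (0%), and DESeq2 called 100 genes, none of them a member. Ddit4 and Arrdc2, 2 of the 10 members, had an unadjusted p below 0.05 and were higher, against 9.17% of all genes in either direction and 4.69% higher. The averaged value of Ddit4 lay between 0.28 and 0.46 when each library was left out in turn, and it was 0.24 once dependence on GC content and gene length had been fitted and subtracted per library. Ddit4 ranked at the 90.4th percentile of GC content, and fold changes of all genes at 1 h went with GC content (Spearman 0.404 across 18353 genes, which are not independent replicates). Its 1 h value was 0.17 with that dependence subtracted, and 0.30 at 6 h.

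Arrdc2 (ENSMUSG00000002910, chr8:70835129-70839720, minus strand) encodes an arrestin-domain protein that acts as an adaptor for ubiquitin ligases, and its transcript is induced by glucocorticoids in muscle. Its level was 20.2, 30.9 and 32.3 CPM in stigmasterol mice at 6 h, against 25.1, 17.1 and 24.6 CPM in vehicle mice at 6 h. The 1 h values were 32.4, 20.6 and 41.0 CPM in stigmasterol mice, against 24.1, 22.5 and 19.3 CPM in vehicle mice. As for Ddit4, 2 of 3 stigmasterol libraries were above the vehicle libraries at each time. Arrdc2 had log2 fold changes of 0.32 ± 0.23 at 6 h, 0.51 ± 0.23 at 1 h and 0.42 ± 0.17 averaged over times (SE; edgeR adjusted p = 1.00, 0.662 and 0.485). The 6 h value was 0.16 without vehicle replicate 14, 0.20 without stigmasterol replicate 23 and 0.51 without stigmasterol replicate 13. The library with the most Arrdc2 was stigmasterol replicate 8 at 1 h, the one highest in oligodendrocyte and striatum markers. Without it the 1 h value was 0.27, with oligodendrocyte content as a covariate 0.30, and with the GC and length dependence subtracted 0.33, Arrdc2 being at the 94.6th percentile of GC content. All 15 oligodendrocyte markers were above 0 with stigmasterol, at 6 h (median 0.25) and at 1 h (median 0.47), and their mean log2 CPM spanned 7.26 to 7.59 in stigmasterol and 6.80 to 7.51 in vehicle mice at 6 h, and 7.27 to 7.91 in stigmasterol and 6.77 to 7.22 in vehicle mice at 1 h.

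Both metallothioneins had an unadjusted p below 0.05 at 6 h, with the higher level in stigmasterol mice, and neither passed after adjustment. Mt2 (ENSMUSG00000031762, chr8:94172664-94173568, plus strand) was at 50.9, 57.0 and 77.6 CPM in stigmasterol mice at 6 h, against 52.2, 50.5 and 41.6 CPM in vehicle mice at 6 h. The 1 h libraries had 44.5, 44.6 and 47.2 CPM in stigmasterol mice, against 58.1, 46.0 and 47.0 CPM in vehicle mice. At 6 h the stigmasterol libraries reached above the vehicle range, with replicate 23 highest, and at 1 h 2 of them lay below it. For Mt2 the log2 fold change was 0.36 ± 0.14 at 6 h (edgeR unadjusted p = 0.0244, adjusted p = 1.00) and -0.15 ± 0.14 at 1 h (edgeR unadjusted p = 0.308, adjusted p = 0.792), as the estimate ± SE. The 1 h value was -0.04 without vehicle replicate 4.

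The 6 h minus 1 h difference of these effects was 0.51 ± 0.20 for Mt2 (SE; edgeR unadjusted p = 0.0242, adjusted p = 1.00). It was the only member with an unadjusted p below 0.05 in that test, against 2.31% of all genes in either direction and 0.642% higher, and 0% passed after adjustment. Without replicate 23 the difference was 0.32, and with choroid plexus content as a covariate it was 0.25. At 6 h the Mt2 value without replicate 23 was 0.17. That library was also the highest of the 12 in astrocyte markers (8.33 mean log2 CPM, against 7.86 to 8.20 elsewhere, with none of 12 markers at 0), the cells that hold much of the metallothionein of the brain. Whether astrocyte content had a part in the difference was not tested. The antisense gene Gm45774 overlaps Mt2 and had 179 to 300 counts per library. How reads lying over both genes were counted is not known without a strand setting, and these counts do not show their number.

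Mt1 (ENSMUSG00000031765, chr8:94179082-94180327, plus strand), next to Mt2 on the chromosome, was at 301, 321 and 346 CPM in stigmasterol mice at 6 h, against 308, 284 and 215 CPM in vehicle mice at 6 h. The 1 h groups had 254, 254 and 292 CPM in stigmasterol mice, against 283, 238 and 259 CPM in vehicle mice. The 6 h groups touched through vehicle replicate 12, and the 1 h groups overlapped. Mt1 had a log2 fold change of 0.26 ± 0.12 at 6 h, with a 95% interval of 0.00 to 0.52, and 0.04 ± 0.12 at 1 h (SE, n = 3 each). Without vehicle replicate 21 the 6 h value was 0.12, and without stigmasterol replicate 23 it was 0.21.

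In the comparison of times, 1 member passed the threshold. Nr3c2 fell by 0.28 ± 0.06 on the log2 scale (SE) at 6 h against 1 h averaged over treatments, which is a level 17.5% lower (percent change -17.5; edgeR adjusted p = 0.0209). It averaged 167 ± 11.9 CPM at 6 h and 202 ± 16.7 CPM at 1 h (SD, n = 6 each). Of all genes, 7.97% were called in this comparison, 3.92% as lower, so a share of 1 called gene in 10 is near the background. The drop was 0.22 ± 0.08 in stigmasterol mice (adjusted p = 0.425) and 0.33 ± 0.08 in vehicle mice (adjusted p = 0.0735), both by edgeR and both given as the size of a decrease. Within each treatment the 6 h libraries were all below the 1 h libraries, but the pooled groups overlapped through stigmasterol replicate 8 at 1 h and vehicle replicate 21 at 6 h.

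The call for Nr3c2 was kept in 8 of the 12 edgeR fits that each left out 1 library. Without stigmasterol replicate 1 at 1 h the edgeR adjusted p was 0.0537, without vehicle replicates 5 or 9 at 1 h it was 0.0541 and 0.0612, and without vehicle replicate 14 at 6 h it was 0.0599. Over all 12 omissions its log2 fold change lay between -0.31 and -0.24. It was -0.26 in edgeR (adjusted p = 0.17) when both vehicle libraries with few plexus markers at 1 h were left out. In vehicle mice alone, Nr3c2 passed with DESeq2 (adjusted p = 0.00987), with only the vehicle groups in the edgeR fit (0.0199) and with the GC and length dependence subtracted (0.0343). It did not pass in edgeR with choroid plexus (adjusted p = 0.203) or oligodendrocyte content (0.0881) as a covariate. Nor did it pass with limma-voom (adjusted p = 0.079) or limma-trend (0.07). With 1 library left out, the edgeR adjusted p lay between 0.0431 and 0.213, and 2 of 12 fits passed. Nr3c1 had a log2 fold change of 0.04 ± 0.08 for 6 h against 1 h, with a 95% interval of -0.12 to 0.21.

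As a description, the ratio of Nr3c2 to Nr3c1 per kilobase of exon was between 2.38 and 2.91 at 6 h (median 2.54) and between 2.89 and 3.68 at 1 h (median 3.25), with 6 libraries at each time. The ranges touched through stigmasterol replicates 22 at 6 h (2.91) and 8 at 1 h (2.89).

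**Figure D3:**
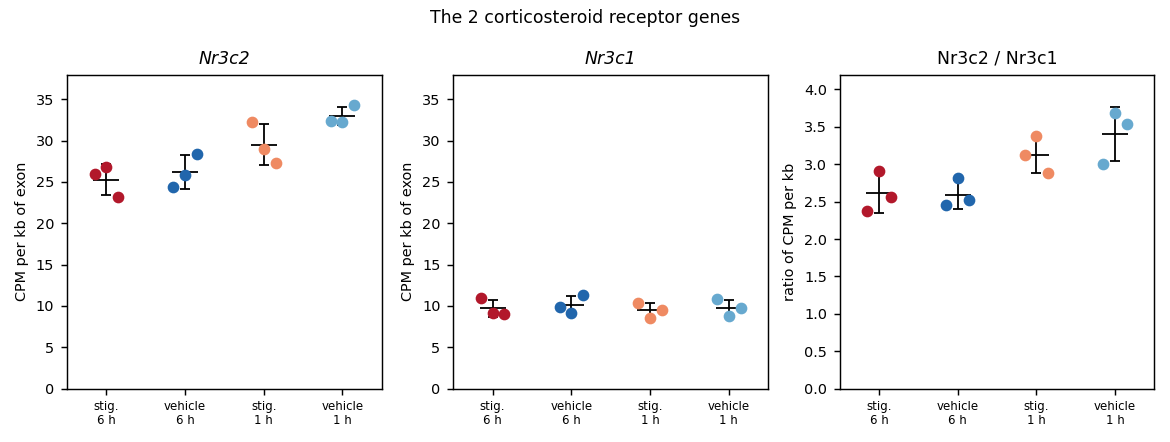
Level of Nr3c2 and of Nr3c1 in CPM per kilobase of exon, and their ratio, in 12 libraries by treatment and time (axes from 0). Points are libraries, lines are means and bars are SDs (n = 3). Nr3c2 is lower at 6 h, Nr3c1 overlaps among the 4 groups, and the ratio lies between 2.38 and 2.91 at 6 h and between 2.89 and 3.68 at 1 h.

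None of the 8 target genes passed the threshold for 6 h against 1 h, averaged over treatments, when all libraries were kept. Sgk1 had a log2 fold change of -0.25 ± 0.14, Ddit4 of -0.17 ± 0.12, Zbtb16 of -0.15 ± 0.12, Fkbp5 of -0.15 ± 0.16, Tsc22d3 of -0.14 ± 0.13 and Arrdc2 of -0.08 ± 0.17 (SE). Mt2 and Mt1 had the opposite sign, at 0.19 ± 0.10 and 0.16 ± 0.08. Without vehicle replicate 14 at 6 h Sgk1 was at -0.15, and without stigmasterol replicate 23 Mt2 was at 0.09. The members' median was -0.14, or -0.06 without stigmasterol replicate 13 and -0.09 without stigmasterol replicate 8, and that of all genes 0.00. Stigmasterol replicate 23 decided 2 of these results. Without it, Fkbp5 fell by 0.36 (edgeR adjusted p = 0.0287) and Tsc22d3 by 0.30 (adjusted p = 0.0397) on the log2 scale, and 3 members were called. All genes called ranged from 244 to 2738 over the 12 omissions, against 1465 with all libraries. The count of 3 members can therefore not be set against the 7.97% of the main fit. The share of all genes called in the fit without replicate 23 is not given here, so that count has no background.

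**Figure D4:**
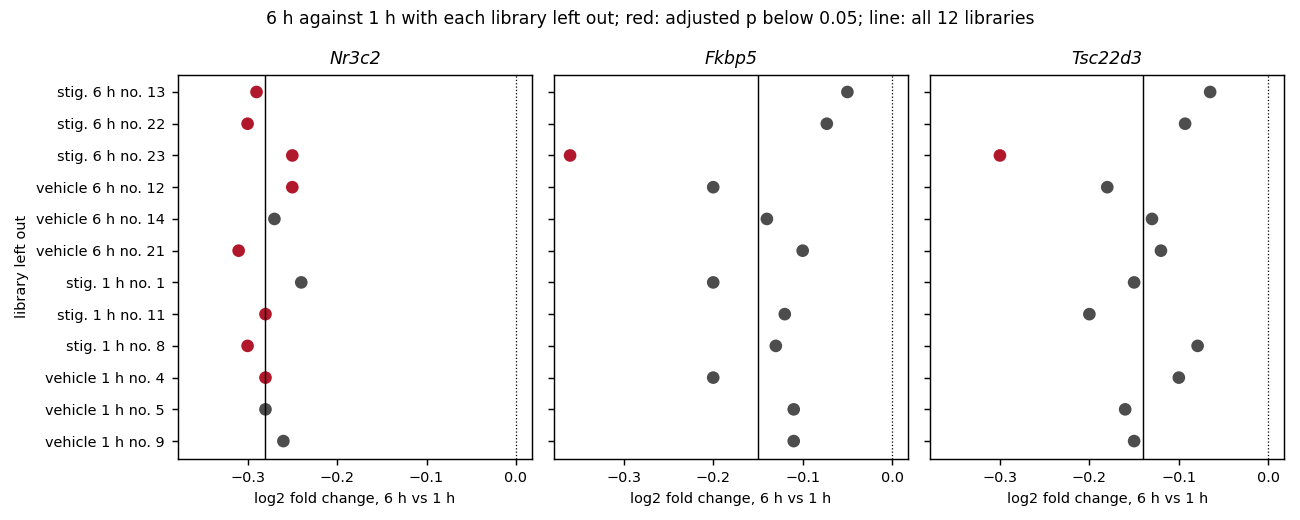
Log2 fold change of Nr3c2, Fkbp5 and Tsc22d3 for 6 h against 1 h (averaged over treatments) when the library named on the left is left out (no., replicate number). Red points have an adjusted p below 0.05 and the solid line is the value with all 12 libraries. Nr3c2 stays between -0.31 and -0.24, while Fkbp5 and Tsc22d3 are called only without stigmasterol replicate 23 at 6 h, at -0.36 and -0.30.

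Within each treatment, no member passed for 6 h against 1 h. In stigmasterol mice, where 0.00544% of genes were called, the groups did not overlap for 3 members, with Mt1 and Mt2 higher, against 6.91% of all genes, and Nr3c2 lower, against 6.61%. The log2 fold changes there were 0.45 ± 0.14 for Mt2 (unadjusted p = 0.00775, adjusted p = 0.351), 0.27 ± 0.12 for Mt1 (adjusted p = 0.482) and -0.45 ± 0.20 for Sgk1 (adjusted p = 0.483), by edgeR's test. Without replicate 23, Mt2 was at 0.25. In vehicle mice, where 0.675% of genes were called, the groups did not overlap for Nr3c2 alone, which was lower, against 17.4% of all genes, and the metallothioneins were at -0.07 ± 0.14 for Mt2 and 0.05 ± 0.12 for Mt1. For the pooled times no member's groups were separate, against 4.44% of all genes.

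Of the 45 pairs of members, 2 passed the adjusted threshold by Pearson's r over the 12 libraries and 1 by Spearman's rho. The permutations shuffled all 12 libraries without regard to group, so differences between groups enter these p-values. No correlation was adjusted for depth or tissue content. Over 45 pairs and 12 libraries, log2 CPM of Mt1 and Mt2 had Pearson's r = 0.832 (permutation p = 0.00055, adjusted 0.0247) and Spearman's rho = 0.867 (permutation p = 0.00051, adjusted 0.0229). It was 0.746 without the 2 libraries farthest from the median of Mt1, and 0.766 after group means were subtracted. Sgk1 and Arrdc2 had r = 0.79 (permutation p = 0.00219, adjusted 0.0493) and rho = 0.769 (permutation p = 0.00495, adjusted 0.1), and r fell to 0.558 without the 2 farthest libraries. Within groups it was 0.812, after group means were subtracted. Fkbp5 and Zbtb16 had r = 0.758 (permutation p = 0.00361, adjusted 0.0541) and rho = 0.741 (permutation p = 0.00764, adjusted 0.1), with 0.814 without the farthest libraries and 0.866 within groups. Fkbp5 and Tsc22d3 had r = 0.734 (permutation p = 0.00603, adjusted 0.0577) and rho = 0.664 (permutation p = 0.0215, adjusted 0.161), which dropped to 0.416 without the 2 farthest libraries and so rests on them. The strongest negative correlations of Nr3c1 were with 2 of the targets. With Zbtb16 it had r = -0.754 (permutation p = 0.00641, adjusted 0.0577) and rho = -0.566 (permutation p = 0.0588, adjusted 0.331), and r was -0.626 without the 2 farthest libraries and -0.825 within groups. With Fkbp5 it had r = -0.671 (permutation p = 0.0159, adjusted 0.102) and rho = -0.72 (permutation p = 0.0107, adjusted 0.1), with -0.477 without the 2 farthest libraries and -0.647 within groups. The other receptor gene, Nr3c2, had its strongest correlation with Mt1, also negative. That pair had r = -0.667 (permutation p = 0.0193, adjusted 0.108) and rho = -0.72 (permutation p = 0.0111, adjusted 0.1). Its r was -0.567 without the 2 farthest libraries and -0.715 within groups.

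**Figure D5:**
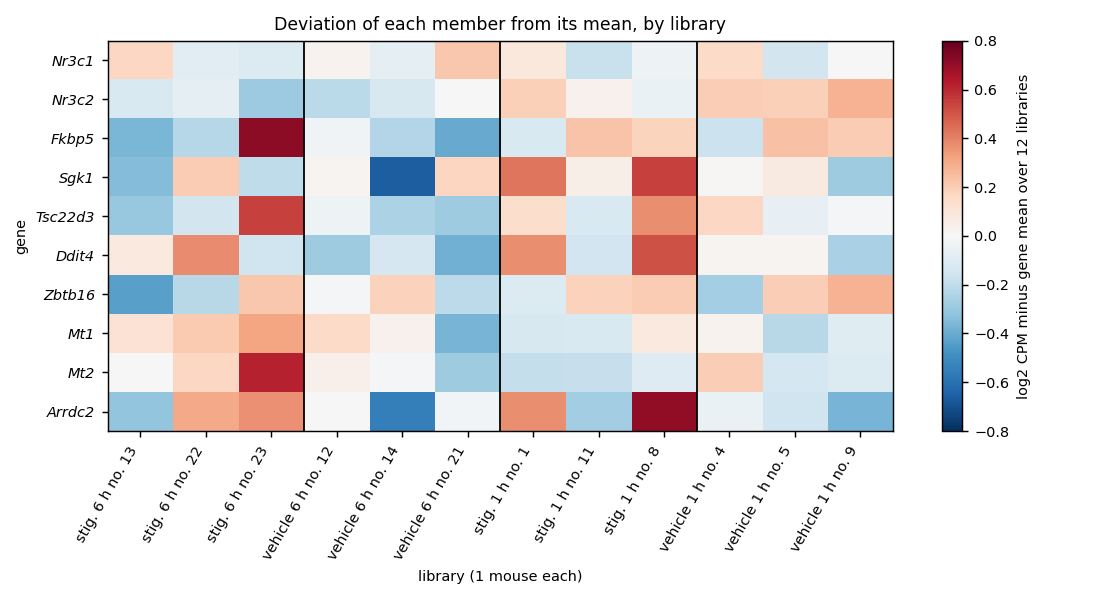
Difference of each gene's log2 CPM from its mean over 12 libraries, by library (columns, grouped by treatment and time) and gene (rows); red is above the mean and blue below. Stigmasterol replicate 23 at 6 h is red for Fkbp5, Tsc22d3, Zbtb16, Mt1, Mt2 and Arrdc2. Stigmasterol replicates 1 and 8 at 1 h are both red for Sgk1, Tsc22d3, Ddit4 and Arrdc2.

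The map of deviations shows which animals stood highest or lowest. Stigmasterol replicate 23 at 6 h was the highest of 12 libraries for Fkbp5, Tsc22d3, Mt1 and Mt2 and the lowest for Nr3c2. Stigmasterol replicate 8 at 1 h was the highest for Sgk1, Ddit4 and Arrdc2. Libraries also differed in the slope of log2 CPM with GC content, which was 0.178 per 10 points of GC in replicate 8, 0.290 in stigmasterol replicate 22 at 6 h and -0.154 in replicate 23.

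The genes most like 4 of the members were ranked by Pearson correlation of log2 CPM over the 12 libraries, among the 11407 genes whose mean reached 5 CPM. The 5 nearest to Fkbp5 were Smim3 (0.929), Lrrc8a (0.925), Lrrc8c (0.878), Mrpl15 (0.831) and Rpl10 (0.827). For Sgk1 they were Plekhf1 (0.875), Rhpn2 (0.874), Cdr2 (0.868), Alkbh5 (0.863) and Cnksr3 (0.861). Ddit4 was followed most closely by Ddx56 (0.954), Nfkbia (0.910), Mrpl43 (0.890), Junb (0.889) and Mrm2 (0.887), and Mt2 by Pdp2 (0.871), Castor1 (0.863), Eci2 (0.862), Cmtm3 (0.849) and Scrg1 (0.844). These are the extremes of a ranking over libraries that share depth and tissue content, and carry no test.

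Other genes of the pathway were read from lists, which were chosen with earlier results of these data known. How far the counts above 0 in these lists depend on single libraries or on GC content was not tested. Among 30 other genes known to be induced by glucocorticoids, none was called between stigmasterol and vehicle at 6 h or at 1 h, while 25 lay above 0 at 6 h (median 0.14) and 24 at 1 h (median 0.09), against 50% and 49.6% of all genes. At an unadjusted p below 0.05 there were 4 of them at each time, against 4.1% of all genes at 6 h and 7.52% at 1 h, in either direction. Cebpd, an immediate target transcription factor, averaged 9.47 ± 2.64 CPM in stigmasterol mice and 5.91 ± 0.380 CPM in vehicle mice at 6 h, and 6.91 ± 0.649 CPM in stigmasterol mice and 4.61 ± 0.936 CPM in vehicle mice at 1 h (SD, n = 3 each). The groups of Cebpd did not overlap at either time, as in 8.22% of all genes at 6 h (3.47% with stigmasterol higher) and 15.8% at 1 h (8.23% higher). Its log2 fold changes were 0.68 ± 0.19 at 6 h and 0.58 ± 0.19 at 1 h (SE; edgeR adjusted p = 1.00 and 0.649). Without stigmasterol replicate 22 the 6 h value of Cebpd was 0.43. Rhob, a small GTPase, averaged 262 ± 24.7 CPM in stigmasterol mice and 207 ± 4.46 CPM in vehicle mice at 6 h (SD, n = 3 each), a log2 fold change of 0.34 ± 0.09 (SE). Plekhf1, an endosomal adaptor and the gene nearest to Sgk1 in the ranking, had 0.57 ± 0.19 at 1 h, or 0.36 without stigmasterol replicate 8.

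Genes of that list were called in both directions over time. At 6 h against 1 h, averaged over treatments, 3 of its 30 genes were called higher and 3 lower, where 4.05% and 3.92% of all genes were. Tgm2, a transglutaminase, averaged 28.8 ± 3.53 CPM at 6 h and 18.7 ± 1.95 CPM at 1 h (SD, n = 6 each), a rise of 0.62 ± 0.08 on the log2 scale (SE; edgeR adjusted p = 0.00237). Usp2, a deubiquitinase under clock control, rose by 0.36 ± 0.07 (adjusted p = 0.0201 in edgeR). Lcn2, the iron-binding lipocalin 2, was between 1.52 and 24.0 CPM at 6 h and between 0.211 and 0.909 CPM at 1 h, a log2 fold change of 3.22 ± 0.68 (edgeR adjusted p = 0.0208), and it was 2.00 without stigmasterol replicate 23, the library at 24.0 CPM. Errfi1, an inhibitor of EGF receptor signalling, fell by 0.50 ± 0.07 on the log2 scale (edgeR adjusted p = 0.00457), with 33.3 ± 2.97 CPM at 6 h and 47.1 ± 3.64 CPM at 1 h (SD, n = 6 each). Tgm2 and Errfi1 passed in all 12 omissions of a library, Usp2 in 11 and Lcn2 in 8.

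Chaperones that fold the receptor and hold it ready for hormone included 3 lower calls at 6 h. Of 23 tested genes for the receptor complex, ligand metabolism and coregulators, 3 were called lower at 6 h against 1 h and 0 higher, where 3.92% and 4.05% of all genes were. Above 0 lay 7 of the 23, against 50.7% of all genes, and the median was -0.10, against 0.00 for all genes. Hsp90aa1, the inducible HSP90 to which FKBP5 binds, averaged 124 ± 11.6 CPM at 6 h and 152 ± 9.93 CPM at 1 h (SD, n = 6 each), a decrease: it fell by 0.29 ± 0.06 on the log2 scale (SE; edgeR adjusted p = 0.0239). Hspa8, the constitutive HSC70, fell by 0.28 ± 0.06 (edgeR adjusted p = 0.0208) and Stip1, the HOP adaptor that joins the pair, fell by 0.23 ± 0.06 (edgeR adjusted p = 0.0403). Hspa8 and Hsp90aa1 each passed in 9 of 12 omissions of a library and Stip1 in 2. Stigmasterol against vehicle called none of the 23 genes at 6 h or 1 h, and 11 lay above 0 at 6 h and 10 at 1 h, against 50% and 49.6% of all genes. The smallest p at 6 h was that of Crebbp, the coactivator CBP (-0.15 ± 0.06), and at 1 h that of Ncor1, a nuclear receptor corepressor (-0.13 ± 0.06), both as log2 fold change ± SE. H6pd, which supplies NADPH to the enzyme that regenerates corticosterone, had 0.30 ± 0.15 at 1 h.

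Of 19 tested relatives of the members, 3 were called lower at 6 h against 1 h and 0 higher, where 3.92% and 4.05% of all genes were. The 3 were Arrdc4, an arrestin-domain gene (-0.33 ± 0.08), Fkbp1a (-0.18 ± 0.05) and Fkbp1b (-0.25 ± 0.07), both immunophilins (log2 fold change ± SE). None was called between stigmasterol and vehicle, and 17 lay above 0 at 6 h and 15 at 1 h, against 50% and 49.6% of all genes. This list too was chosen with earlier results known, and the dependence of its counts on single libraries or GC content was not tested. Tsc22d4, a relative of Tsc22d3, had 0.27 ± 0.14 at 6 h and 0.34 ± 0.14 at 1 h, the second being 0.12 without stigmasterol replicate 8, and Txnip, a relative of Arrdc2, had 0.27 ± 0.13 at 6 h. Sgk2, a kinase related to Sgk1, had 0.47 ± 0.21 at 1 h, or 0.30 without that library.

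The pathways on which Ddit4 and the metallothioneins act were also read. Of 12 mTORC1 pathway genes, 0 were called between stigmasterol and vehicle. Akt1s1, an mTORC1 inhibitor, averaged 37.8 ± 7.71 CPM in stigmasterol mice and 29.2 ± 1.88 CPM in vehicle mice at 6 h, and 35.3 ± 5.32 CPM in stigmasterol mice and 24.4 ± 3.02 CPM in vehicle mice at 1 h (SD, n = 3 each). Its log2 fold changes were 0.37 ± 0.15 at 6 h and 0.53 ± 0.15 at 1 h (SE), and their average of 0.45 ± 0.10 had an edgeR adjusted p = 0.205. Without stigmasterol replicate 22 the 6 h value of Akt1s1 was 0.20. The counts over time in these 3 lists stand against 4.05% of all genes called higher and 3.92% called lower. Of the mTORC1 genes, Tsc1 was called higher (0.16 ± 0.04) and Rheb (-0.29 ± 0.07) and Sesn1 (-0.28 ± 0.07) lower, as log2 fold change ± SE. Of 13 metal and hypoxia response genes, Bnip3, a mitochondrial hypoxia target, was called lower at 6 h against 1 h (-0.28 ± 0.07), and 2 lay above 0, against 50.7% of all genes, while none was called between treatments. Of 15 clock genes, 4 were called higher at 6 h against 1 h and 0 lower, namely Per3 (0.58 ± 0.08), Cry1 (0.40 ± 0.08), Cry2 (0.23 ± 0.06) and Dbp (0.51 ± 0.14), and none was called between treatments. When each library was left out in turn, Per3 and Cry1 passed in all 12 fits, Arrdc4 and Bnip3 in 4, Rheb in 3, Cry2, Dbp, Fkbp1a and Tsc1 in 2, and Fkbp1b and Sesn1 in 1.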

How the data were processed

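RNA-seq libraries from the hippocampus of 12 mice were analysed. Per the submitters' processing notes, reads were handled with bcl2fastq 2.17.1.14, cutadapt, STAR 2.4.2a and HTSeq 0.6.1p1 against GRCm38, and DESeq2 1.10.1 was used. The authors deposited raw counts per gene, and a second deposited table of normalized signal, which equals the counts divided by 1 size factor per library (largest difference 0.00753). Whether counting used strand is not given in the sources used here.

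Counts were tested with edgeR 4.0.16 (R 4.3.3): filterByExpr, TMM scaling and a quasi-likelihood fit over all 4 groups, which share 1 estimate of the spread (biological coefficient of variation 0.123). A gene was called at a Benjamini-Hochberg adjusted p below 0.05 over all 18382 genes tested, and the fit was checked on simulated counts. Values after ± are SDs of levels or SEs of fold changes, with 95% intervals from the same fit. Totals of 27613253 to 42043875 counts per library left every member with at least 602 counts in each library. In log2 CPM the prior count was 2. Alternatives used DESeq2 1.42.0 or limma 3.58.1 (voom, or trend on log2 of the normalized signal + 1), other scaling and filters, only the groups compared, choroid plexus or oligodendrocyte marker content as a covariate, a threshold of 0.1, and the omission of each library. Omitting 2 vehicle libraries together, and subtracting GC and length trends (splines with 5 degrees of freedom), were chosen after seeing the data. Correlations used 100000 permutations of all 12 libraries, without regard to group.

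The members and all gene lists were chosen with earlier results of these data known. Besides the members, up to 4 called genes with the smallest p were named per list and comparison, or up to 2 where none was called, and the 5 genes best correlated with Fkbp5, Sgk1, Ddit4 and Mt2, leaving out predicted genes. Gene names and lengths were matched for 21495 of 21532 genes. Promoter windows came from RefSeq (GRCm38.p6), and both strands were searched.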

Additional observations from a re-analysis of the deposited data

How the results depend on the processing

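No paired analysis was possible because no replicate number is shared between groups. No member was called between stigmasterol and vehicle under any alternative, while all genes called numbered 0 to 21 at 1 h, 0 to 4 at 6 h and 0 to 100 averaged over times. For 6 h against 1 h averaged over treatments, all genes called numbered 1465, and 31 to 2869 over the alternatives; 1 member, Nr3c2, was called in the main analysis, 0 to 3 when 1 library was left out, and 0 with vehicle replicates 4 and 9 at 1 h left out together. In vehicle mice, 124 genes were called (0 to 1771 over the alternatives) and 0 members, against 1 member with DESeq2, with only the groups compared, with GC and length trends subtracted and at a threshold of 0.1, and 0 to 1 when 1 library was left out. In stigmasterol mice it was 1 gene, and 0 to 100 over the alternatives. The causes were not tested.

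Fold changes of small size turned sign in some settings, given as log2 values for stigmasterol against vehicle at 1 h unless stated. With choroid plexus content as a covariate, Nr3c1 was at 0.036 and Mt2 at 0.058. Without vehicle replicates 4 and 9, Nr3c1 was at 0.11, Fkbp5 at -0.13 and Zbtb16 at -0.098. With GC and length trends subtracted, Nr3c1 was at 0.022, Fkbp5 at -0.007, Zbtb16 at -0.048 and Mt1 at -0.066, and with the stricter filter Fkbp5 was at -0.002. With oligodendrocyte content as a covariate, Sgk1 at 6 h was at -0.055. When 1 library was left out, the 1 h ranges were -0.12 to 0.033 for Nr3c1, -0.12 to 0.11 for Fkbp5, -0.021 to 0.24 for Tsc22d3, -0.14 to 0.12 for Zbtb16 and -0.033 to 0.10 for Mt1. The 6 h ranges were -0.15 to 0.022 for Nr3c1, -0.10 to 0.011 for Nr3c2, -0.079 to 0.53 for Fkbp5, -0.20 to 0.18 for Sgk1, -0.033 to 0.43 for Tsc22d3 and -0.32 to 0.019 for Zbtb16. For 6 h against 1 h averaged over treatments they were -0.002 to 0.091 for Nr3c1 and -0.19 to 0.043 for Arrdc2. The precision was set by 3 animals a group: SEs of the members were 0.08 to 0.23 in the comparisons at 1 time, with at least 602 counts behind each value.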
